A study of Mus musculus with 24 samples.

Results

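The comparison set the livers of vehicle-treated mice labelled 72 h against those labelled 24 h, with no test compound given. It used 6 of the series' 24 Affymetrix arrays: the 3 labelled corn oil, 72 h, and the 3 labelled corn oil, 24 h, across all 18194 genes that could be named. The animals were male B6C3F1 mice, 7 to 10 weeks old on arrival, which carry no engineered allele in the labels. In all groups a volume of 10 ml/kg was given by oral gavage, a tube to the stomach, every 24 h for 3 days. The corn oil groups received oil alone (0 mg/kg), and the DEHP groups, used here for comparison only, received diethylhexylphthalate at 1150 mg/kg/day. All mice were killed with an overdose of halothane and bled by cardiac puncture before the liver was frozen. No ungavaged mice were analysed here, so the number of doses, the age of the mice and the time of sampling cannot be told apart. The labels do not say how many doses preceded each sample or whether each array stands for its own mouse, and the 6 mice named in the design text are not tied to arrays. Each p-value and standard error (SE) therefore measures only a spread between arrays, which may be technical. Unless stated otherwise, that spread was pooled within groups over all 24 arrays.

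Corn oil is a common vehicle for compounds that do not dissolve in water. A gavage brings a load of fat to the liver and also means handling and restraint. Handling raises adrenal glucocorticoids, and tissue injury or infection raises cytokines such as interleukin-6. Both act on hepatocytes, the first through the glucocorticoid receptor (Sgk1, Tsc22d3, Fkbp5 and Per1 are among its targets) and the second through the acute phase response, in which the liver secretes serum amyloid A, orosomucoid and lipocalin. Hepatocytes make up most of the liver's mass, and resident macrophages (Kupffer cells), sinusoidal endothelium and stellate cells line the blood spaces between them.

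All values are log2 signals, so a difference of 1 is a doubling, and each difference is the mean at 72 h minus the mean at 24 h. Genes were tested with limma over all arrays and called at a Benjamini-Hochberg adjusted p under 0.05. The median difference over all genes was 0.02, and 57.1% of genes had a positive difference. Only 2 genes were called, both higher at 72 h: Bpgm and Ccn2. That is 0.011% of the genes tested. At an unadjusted p under 0.05 there were 1579 genes, 1242 higher and 337 lower; with median centring of the arrays that split was 1630 and 237, and with quantile normalization 842 and 487. Differences of 2-fold or more were found for 34 genes in the higher direction and 4 in the lower, but the 3 arrays of one time lay wholly above those of the other for only 14 and 1 of these. Probe sets without a single gene name were tested apart: 13 of 10143 (0.128%) were called by limma, 2 higher and 11 lower, and they are not described further here.

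The promoters of Bpgm and of Hspa1a, the heat shock gene with the lowest p in its list, are shown as examples. Both genes separated the times on every array, as did many others. For Ccn2, the other called gene, no promoter sequence was to hand. The sequences are the 250 bases before the start of each gene in RefSeq (build GRCm38.p6), at chr6:34476106-34476355 on the plus strand and chr17:34972157-34972406 on the minus strand. Capitals mark CCAAT, a box bound by the factor NF-Y, in Bpgm, and the heat shock element GAANNTTC in Hspa1a, each searched on both strands.
Bpgm: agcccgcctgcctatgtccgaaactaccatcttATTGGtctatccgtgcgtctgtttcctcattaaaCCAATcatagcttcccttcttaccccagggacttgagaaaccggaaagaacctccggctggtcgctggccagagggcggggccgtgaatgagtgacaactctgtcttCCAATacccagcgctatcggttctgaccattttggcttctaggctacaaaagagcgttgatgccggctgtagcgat
Hspa1a: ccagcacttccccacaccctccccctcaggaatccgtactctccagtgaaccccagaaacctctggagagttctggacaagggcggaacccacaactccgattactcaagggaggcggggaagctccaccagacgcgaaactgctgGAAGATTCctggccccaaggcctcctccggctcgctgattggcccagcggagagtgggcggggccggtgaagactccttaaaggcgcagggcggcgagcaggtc
Bpgm held 3 CCAAT matches, whose first bases lay 217, 183 and 76 bases before the start. Of 32851 promoters of that length in the table, 33.8% held at least 1 such match. Hspa1a held 1 GAANNTTC match, beginning 104 bases before the start, which 6.69% of promoters had. It also held 1 CCAAT match, left in lower case, beginning 67 bases before the start. Neither promoter held the other form of the heat shock element, TTCNNGAA (7.17% of promoters). Nor did either hold the E-box CACGTG (6.02%) or the cAMP response element TGACGTCA (1.55%). A match is only a run of letters, and binding was not measured.

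Bpgm encodes bisphosphoglycerate mutase, a glycolytic side enzyme best known for making the red cell metabolite that lowers haemoglobin's grip on oxygen. It lies at chr6:34476356-34505136 (GRCm38.p6). Its signal was 7.93, 8.17 and 8.04 on the 24 h arrays and 8.78, 8.71 and 8.58 on the 72 h arrays. All 3 arrays at 72 h lay above all 3 at 24 h, and the arrays of each time were close together. The rise was 0.64 ± 0.09 (SE, n = 3 arrays per time; 1.56-fold; limma, adjusted p = 0.00534). The gene's dimmer probe sets gave 0.35, with overlap between times, and 0.78, without. In corn oil livers at 2 h the mean was 8.44 ± 0.03 (SD, n = 3) and at 8 h 8.32 ± 0.16, so the 24 h level was the lowest of the 4 times and the 72 h level the highest. Markers of red blood cells, in which the enzyme is abundant, had a median difference of 0.13 over the 4 members measured of 10 listed, and none separated the times. The 24 h means were 4.48 for Hba-a1, 7.73 for Hbb-b2, 6.57 for Slc4a1 and 10.81 for Alas2. Both globin genes were thus dimmer than Alas2, which limits what the list says of red cells. The list means (members averaged, in log2 units from the mean of all 24 arrays) were -0.02, 0.10 and -0.22 at 24 h and 0.23, -0.05 and 0.08 at 72 h. The part of red cells in the Bpgm result was not tested.

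Ccn2 (connective tissue growth factor) encodes a secreted matrix protein, a well-known target of the YAP and TGF-beta pathways. It lies at chr10:24595442-24598683. Its signal was 6.21, 6.49 and 6.69 at 24 h and 8.01, 7.60 and 7.74 at 72 h. No arrays overlapped between times. The rise was 1.32 ± 0.19 (SE, n = 3 arrays per time; 2.50-fold; limma, adjusted p = 0.00534), on the gene's single probe set. At 2 h the corn oil mean was 7.25 ± 0.03 (SD, n = 3) and at 8 h 7.13 ± 0.58, where the single arrays ran from 6.48 to 7.62 and overlapped with both later times. Both calls were lost without corn oil 24 h replicate 1, the array with the lowest value for each gene (limma, adjusted p = 0.0702 for Bpgm and 0.072 for Ccn2), although the differences stayed at 0.58 and 1.20. From the 6 arrays alone neither was called (limma, adjusted p = 0.402 and 0.055), nor from the 12 corn oil arrays (0.0866 and 0.125).

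**Figure D1:**
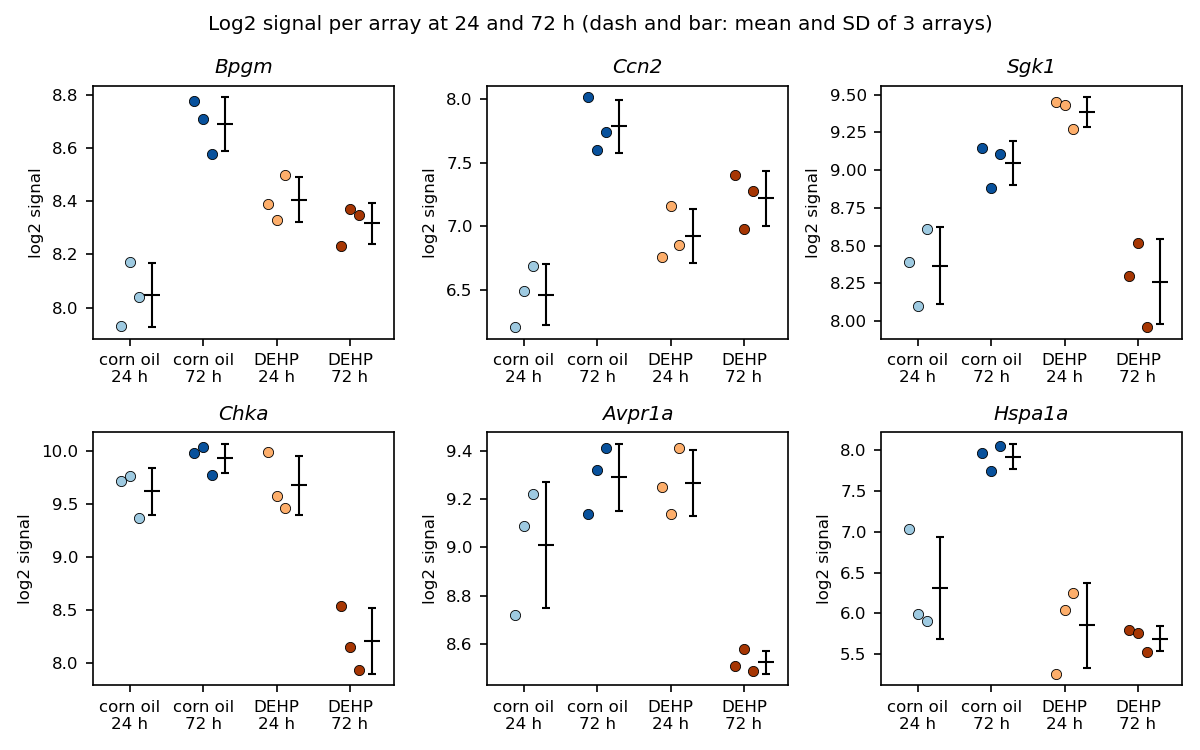
Log2 signal (vertical axis) on each of the 3 arrays per group for Bpgm, Ccn2, Sgk1, Chka, Avpr1a and Hspa1a in corn oil and DEHP livers at 24 and 72 h; the dash and bar are the mean and SD. Bpgm, Ccn2, Sgk1 and Hspa1a at 72 h in corn oil lie above all 3 corn oil arrays at 24 h, whereas the DEHP arrays of Sgk1, Chka and Avpr1a at 72 h lie below those at 24 h.

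Genes next in order of p were not called and were picked here after their values were seen. Pim1, a survival kinase induced by cytokines, gave 8.43, 8.46 and 8.33 at 24 h and 7.24, 7.56 and 7.92 at 72 h. Its difference was -0.83 ± 0.15 (SE; limma, adjusted p = 0.0805), and its other probe set gave -0.25. The Wnt inhibitor gene Wif1 differed by 0.41 (adjusted p = 0.0792) at a signal near the bottom of the range, between 3.18 and 3.75 on the 6 arrays. Klf2, a flow-responsive transcription factor of endothelium, gave 7.13, 6.97 and 7.42, then 8.08, 7.78 and 8.00. Gsn, the actin-severing protein gelsolin, gave 6.78, 7.11 and 7.17, then 8.43, 7.94 and 8.00. That is the brightest of 6 Gsn probe sets, whose differences ran from -0.07 to 1.10, and their average gave 0.63 (limma, adjusted p = 0.402). On the brightest the corn oil mean was 8.09 at 2 h and 7.94 at 8 h, so the 24 h mean, 7.02, was the lowest of the corn oil times. The Notch target Hes1 ran the other way, from 8.25, 8.31 and 8.35 to 7.99, 7.52 and 7.37. For Klf2, Gsn and Hes1 the arrays did not overlap, and the differences were 0.78, 1.10 and -0.67 (limma, adjusted p = 0.235 for each). The largest difference of any gene was that of Dmbt1, a mucosal scavenger protein, at 5.74, 5.10 and 5.62 against 7.89, 7.54 and 7.38. Its difference of 2.11 ± 0.59 was not called (limma, adjusted p = 0.335), although it was with the 6 arrays alone (0.011) and with the 12 corn oil arrays alone (0.00422). The main fit takes its spread from the DEHP arrays too. There the SD of Dmbt1 was 1.57 at 24 h and 1.11 at 72 h, against 0.34 and 0.26 in corn oil. Its corn oil mean was 7.96 at 2 h and 8.17 at 8 h, so the 24 h mean, 5.49, was the lowest of the corn oil times.

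Gene lists are described by how many members had all 3 arrays at 72 h above, or below, all 3 at 24 h. Over all genes 1345 (7.39%) were wholly above and 657 (3.61%) wholly below. No list held a called gene. Marker lists of the cells lining the sinusoids had the largest shares of members wholly above among the lists tried, which is a description and not a test. Of 15 macrophage markers, all measured, 14 had a positive difference, 9 (60%) lay wholly above, and the median difference was 0.45. Of 13 endothelial markers 13 were positive, 8 (61.5%) lay wholly above, and the median was 0.34. Of 15 stellate cell markers 14 were positive, 5 (33.3%) lay wholly above, and the median was 0.14. Hepatocyte markers (13 measured of 15) had a median of -0.02, with 1 wholly above and 1 wholly below, the dim Ass1. In whole liver RNA, more cells of a type and more RNA per cell cannot be told apart.

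Among the macrophage markers, C1qc, a chain of the complement starter C1q that Kupffer cells make, gave 8.86, 9.12 and 8.89 at 24 h and 9.97, 9.39 and 9.76 at 72 h. Its difference was 0.75 ± 0.24 (SE; limma, adjusted p = 0.408). C1qa and C1qb, the other chains, gave 0.59 and 0.70. Timd4, a receptor for dying cells on resident Kupffer cells, gave 0.68; Clec4f, a lectin found on Kupffer cells, gave 0.45; and Cd5l, a secreted scavenger protein, gave 0.57. The lysosomal marker Cd68 gave 7.14, 7.12 and 7.19, then 7.88, 7.44 and 7.73. Adgre1, a classic macrophage surface marker, at 0.30 and the growth factor receptor Csf1r at 0.20 overlapped between times. The macrophage list means were -0.13, -0.16 and -0.07 at 24 h and 0.48, 0.06 and 0.36 at 72 h, so no arrays overlapped, and 72 h replicate 2 was the nearest to the earlier group. Without 72 h replicate 1 the list's median was 0.36. On the earlier corn oil arrays the list means ran from 0.05 to 0.13 at 2 h and from -0.54 to 0.31 at 8 h. Those at 2 h lay above all arrays at 24 h, and those at 8 h overlapped with both later times. The value of -0.54 was that of 8 h replicate 2. Its 3' minus 5' difference of Actb, a measure of RNA breakdown, was 1.46, and its 18S ribosomal RNA signal was 12.21. Both were the highest of the 24 arrays. The other 8 h arrays, at 0.31 and 0.21, lay above all arrays at 24 h. The part of RNA quality in these values was not tested.

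Among the endothelial markers, Lyve1, a hyaluronan receptor of the sinusoid wall, gave 6.62, 6.36 and 6.63 at 24 h and 7.08, 6.96 and 7.83 at 72 h. Its difference was 0.75 ± 0.26 (SE; limma, adjusted p = 0.461), the largest of the list. The junction genes Pecam1 and Cdh5 gave 0.56 and 0.40, the orphan receptor Gpr182 0.38 and the lectin Clec4g 0.34. All 5 separated the times on every array, though second probe sets of Cdh5 and Clec4g gave 0.07 and -0.06. Stab2, a scavenger receptor, gave 0.19 with overlap. The list means were 0.02, -0.27 and -0.02 at 24 h and 0.20, 0.22 and 0.37 at 72 h, again without overlap. The median was 0.36 without 72 h replicate 1, and 0.21 without 24 h replicate 2, the lowest array. On the earlier corn oil arrays the endothelial means ran from 0.11 to 0.22 at 2 h and from -0.63 to 0.30 at 8 h. Those at 2 h lay above all arrays at 24 h, and those at 8 h overlapped with both later times. Of the stellate cell list, the filament gene Vim gave 6.99, 7.58 and 7.56, then 7.87, 7.64 and 7.93 (difference 0.43; limma, adjusted p = 0.502). The stellate list means in corn oil ran from 0.14 to 0.24 at 2 h and from -0.24 to 0.15 at 8 h. They ran from -0.19 to -0.06 at 24 h and from -0.03 to 0.16 at 72 h.

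**Figure D2:**
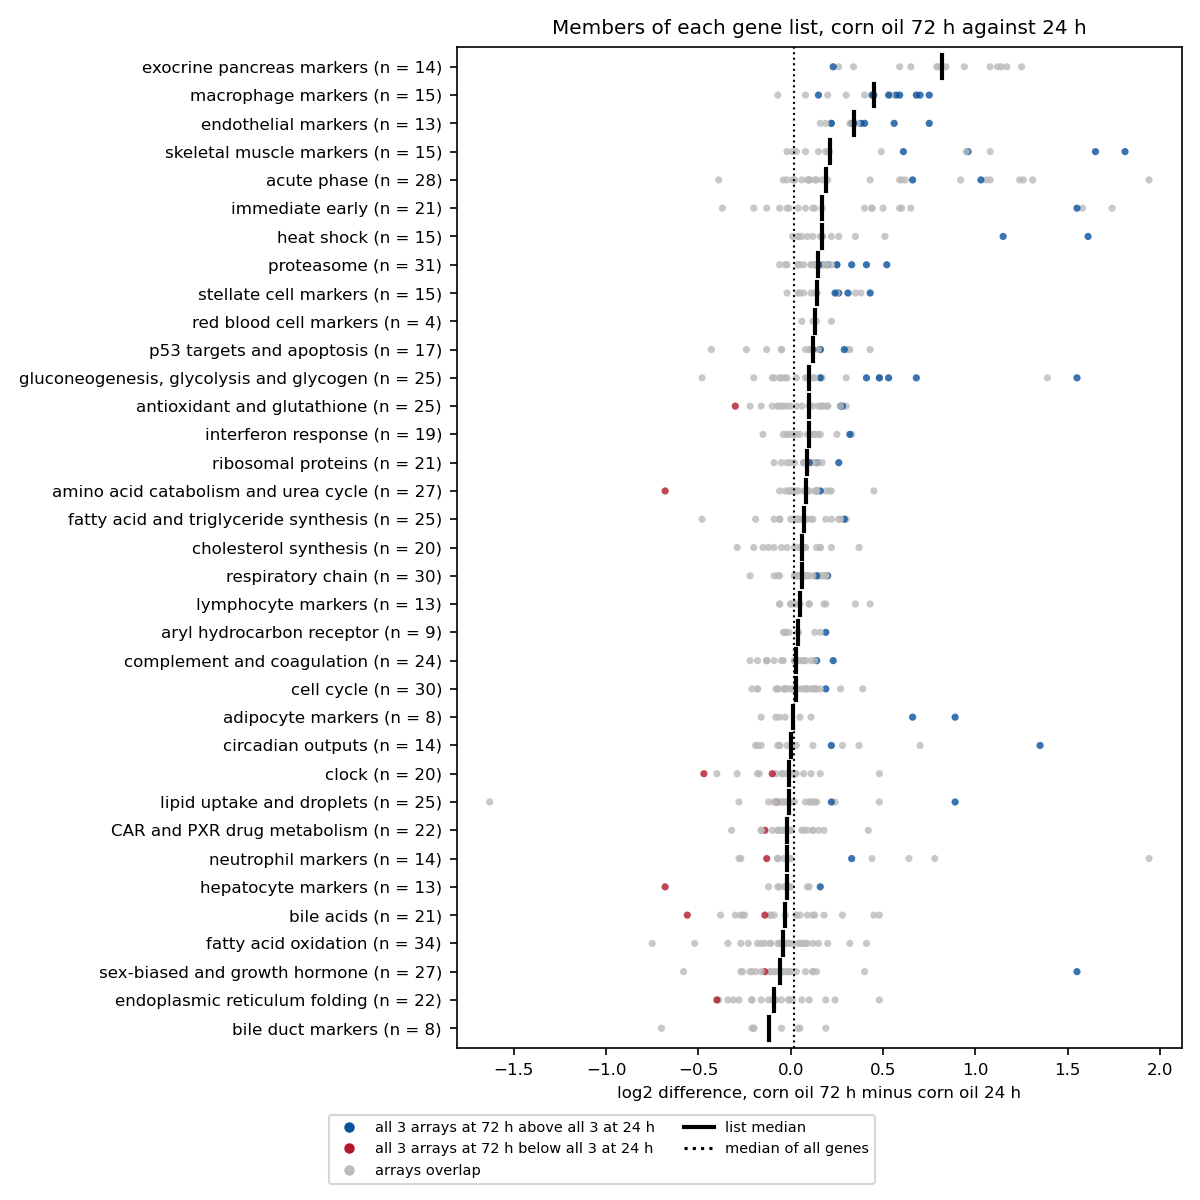
Difference between corn oil livers at 72 h and 24 h (horizontal axis, log2) for each measured member of 35 gene lists (rows), with the list median as a black bar and the median of all genes, 0.02, as a dotted line. Blue members, wholly above at 72 h, make up 60% of the macrophage and 61.5% of the endothelial markers, against 7.39% of all genes.

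All 15 measured members of the heat shock list (chaperones that refold damaged proteins) had a positive difference, with a median of 0.17, and 3 (20%) lay wholly above. Hspa1a, an inducible Hsp70, gave 7.03, 5.99 and 5.91 at 24 h and 7.97, 7.75 and 8.05 at 72 h. The difference was 1.61 ± 0.32 (SE; limma, adjusted p = 0.185), and the 24 h arrays were themselves spread over more than 1 log2 unit. Hspa1b, whose sequence is nearly identical so that probes may not tell the pair apart, gave 12.35, 11.22 and 11, then 12.30, 11.66 and 12.14, with overlap. Its co-chaperone Dnajb1 gave 9.85, 9.57 and 9.58, then 11.75, 10.19 and 10.50, a difference of 1.15 (limma, adjusted p = 0.235). The constitutive Hspa8 separated the times by only 0.17. Hsph1 (0.09) and Hsp90aa1 (0.01) lay near 0, and the sign of Hsp90aa1 turned with quantile normalization (-0.05). The list means were 0.33, -0.13 and -0.01 at 24 h and 0.42, 0.29 and 0.47 at 72 h, so the first array at 24 h overlapped with the later group. Chaperones of the endoplasmic reticulum had a median of -0.09, with 16 of 22 members negative.

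Of 31 proteasome genes (the machine that degrades tagged proteins) 28 were positive, 8 (25.8%) lay wholly above, and the median was 0.15. Psmb8 and Psmb10, subunits of the immunoproteasome, gave the largest differences that separated the times, 0.52 and 0.41 (limma, adjusted p = 0.408 and 0.359). A second probe set of Psmb8 gave 0.05. Its signals on the one used were 8.58, 9.10 and 9.12 at 24 h and 9.54, 9.47 and 9.34 at 72 h. The list means at 24 h were -0.30, -0.12 and -0.01 and those at 72 h -0.04, 0.03 and 0.05, which overlap. Interferon also induces the immunoproteasome, and the interferon response genes had a median of 0.10 over 19 members, with 1 wholly above. Ribosomal protein genes had a median of 0.09, with 5 of 21 wholly above (23.8%), and respiratory chain genes 0.06, with 2 of 30.

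In the list for gluconeogenesis, glycolysis and glycogen 17 of 25 members were positive, 6 (24%) lay wholly above, and the median was 0.10. Igfbp1, a binding protein of insulin-like growth factors that is repressed by insulin, gave 9.29, 9.76 and 10.01 at 24 h and 12.40, 10.02 and 11.30 at 72 h. Its difference of 1.55 ± 0.51 (SE, limma, adjusted p = 0.419) was not called, and 72 h replicate 1 was the highest array. The corn oil mean of Igfbp1 was 11.51 at 2 h and 9.67 at 8 h, so the 72 h mean, 11.24, was below that at 2 h. Sgk1, a kinase induced by glucocorticoids, gave 8.39, 8.10 and 8.61, then 9.15, 8.88 and 9.11, a difference of 0.68 (adjusted p = 0.291). G6pc, the last enzyme of glucose release, and Tsc22d3, the glucocorticoid-induced leucine zipper, gave 0.53 and 0.48 and separated the times, with the 4 probe sets of Tsc22d3 between -0.06 and 0.56. Pfkfb3, an activator of glycolysis, differed by 1.39 (0.28 on its other probe set) with overlap, since 24 h replicate 3 stood at 8.40 against 6.77 and 6.59. Fkbp5 and Per1, which glucocorticoids also induce, gave -0.03 and 0.48, both with overlap.

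Genes that handle fat, which the vehicle supplies, had list medians between -0.04 and 0.07. Fatty acid oxidation had a median of -0.04 over 34 members, with none wholly above or below. Lipid uptake and droplets had -0.01 over 25, fatty acid and triglyceride synthesis 0.07 over 25, cholesterol synthesis 0.06 over 20, and bile acids -0.03 over 21. The fatty acid and triglyceride synthesis median moved with single arrays: it was -0.05 without 24 h replicate 1, 0.26 without 24 h replicate 3, and 0.29 without both 24 h replicate 3 and 72 h replicate 1. Cpt1a, which admits fatty acids to mitochondria, gave 11.76, 11.60 and 11.67, then 11.73, 11.92 and 11.99. The desaturase gene Scd1 differed by -0.09 and the synthase gene Fasn by 0.03. Cyp4a14, the PPAR-alpha target that is most used as its reporter, gave 8.58, 8.48 and 8.13, then 6.55, 7.98 and 8.39, a difference of -0.75 ± 0.40 (SE; limma, adjusted p = 0.596) with 72 h replicate 1 lowest. G0s2, an inhibitor of the lipase that opens droplets, had the largest difference in the lower direction, at 10.41, 9.16 and 9.68 against 7.16, 9.17 and 8.05. Its difference was -1.63 ± 0.36 (SE; limma, adjusted p = 0.235), and it was called without 72 h replicate 2 (-2.15; 0.0141). Fabp4, a fatty acid carrier of fat cells, macrophages and endothelium, gave 6.85, 6.88 and 7.06, then 8.28, 7.46 and 7.73 (difference 0.89; limma, adjusted p = 0.546), while its 4 probe sets ran from -0.02 to 0.89. Cyp7a1, which sets the pace of bile acid production, gave 11.60, 11.07 and 11.48, then 10.38, 11.03 and 11.06, wholly below but not called (-0.56; limma, adjusted p = 0.596).

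Clock genes as a group lay near the median of all genes. The median of 20 core clock genes was -0.01, with none wholly above and 2 wholly below. Dbp, a clock output whose liver level swings widely over the day, gave 7.45, 6.92 and 9 at 24 h and 8.96, 7.52 and 6.78 at 72 h. The spread within each time was thus about 2 log2 units, far more than the difference of -0.04 ± 0.57 (SE). Arntl, which peaks opposite to Dbp, gave 8.43, 8.38 and 8.00, then 7.81, 8.19 and 8.65. Array by array the order of Arntl was the reverse of that of Dbp at each time, except for the pair of highest Arntl values at 24 h. Nr1d1 gave 9.15, 8.51 and 8.52, then 8.42, 8.48 and 7.85, wholly below (-0.47; limma, adjusted p = 0.461). Noct, a clock-controlled phosphatase gene, gave 8.47, 7.55 and 9.47, then 9.89, 9.91 and 9.74. Its difference of 1.35 ± 0.31 (limma, adjusted p = 0.235) was called without 24 h replicate 3 (1.84, limma, adjusted p = 0.00764). The corn oil mean of Noct was 8.46 at 2 h and 9.76 at 8 h, so the 72 h mean, 9.85, was close to that at 8 h.

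Acute phase values depended on which arrays were used, and 1 array of each time stood high. In the list 25 of 28 members were positive, with a median of 0.19, but only Cebpb and Cebpd lay wholly above (7.14%). Lcn2 (lipocalin 2) gave 6.48, 6.54 and 9.84 at 24 h and 13.28, 7.88 and 7.54 at 72 h. Saa2 gave 9.49, 8.93 and 13.04, then 14.26, 10.73 and 10.20, and Orm2 gave 6.22, 6.28 and 11.12, then 12.66, 7.07 and 7.15. So 24 h replicate 3 and 72 h replicate 1 were high in both, and the other 4 arrays were low; the other 72 h arrays still lay above the other 24 h arrays for these 3 genes. Saa1 differed by 0.62 and the metal-binding Mt1 by 1.31, both with overlap. Cebpd and Cebpb, factors that drive acute phase genes, gave 1.03 and 0.66 (limma, adjusted p = 0.302 for each), and a second probe set of Cebpd gave 0.08. The acute phase list means were -0.54, -0.63 and 0.48 at 24 h and 1.28, -0.28 and -0.24 at 72 h, which overlap. The list's median was -0.05 without 72 h replicate 1, 0.41 without 24 h replicate 3 and 0.12 without both.

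Immediate early genes, which respond within minutes to growth factors and stress, were high on 72 h replicate 1. Egr1 gave 7.27, 7.21 and 7.51 at 24 h and 12.91, 6.87 and 7.43 at 72 h. Fos gave 6.28, 6.04 and 6.33, then 10.88, 6.17 and 6.34. For both, the other 72 h arrays lay within 1 log2 unit of the 24 h arrays. Jun was the single member that lay wholly above (4.76% of 21), at 7.03, 6.99 and 7.61, then 9.85, 8.13 and 8.28 (difference 1.55; limma, adjusted p = 0.235), with 0.70 on its other probe set. The list mean of 72 h replicate 1 was 1.14, against -0.27 to -0.07 on the other 5 arrays, and the median without it was -0.09.

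The same array carried markers of other tissues. The exocrine pancreas list had a mean of 1.88 on 72 h replicate 1 and -0.65 to -0.41 on the other 5 arrays, and its median difference was 0.82 with that array and 0.03 without it. Prss2, a trypsinogen, stood at 10.91 there and at 7.26 to 7.39 on the other 5. Skeletal muscle markers, a list written after the data had been seen, had a mean of 1.10 there and -0.36 to 0.02 on the others. Tnnc2, a troponin of fast muscle, stood at 9.41 there, at 5.41 and 6.02 on the other 72 h arrays and at 5.12 to 5.18 at 24 h. Both lists were also high on single arrays of other groups. The highest pancreas mean was 1.66 in corn oil at 2 h, 3.04 in DEHP at 2 h and 1.39 in DEHP at 72 h. For muscle it was 1.07 in corn oil at 8 h, 0.72 in DEHP at 8 h and 0.77 in DEHP at 72 h. Neutrophil markers had a mean of 0.82 on corn oil 72 h replicate 1 and -0.20 to 0.07 on the other 5 arrays. The median difference of that list was -0.02. High there were Lcn2 (13.28), which is also on the acute phase list, S100a8 (7.5), S100a9 (8.31) and Cxcl1 (11.73). Elane (8.49), Csf3r (7.98) and Ltf (7.46) lay within the range of the other 5 arrays. The part of these tissues in the results above was not tested. With both it and 24 h replicate 3 left out, the macrophage median was 0.43, the endothelial 0.41 and the heat shock 0.16, and limma called 13 genes, among them Bpgm and Ccn2. The 3' minus 5' difference of Actb, a measure of RNA breakdown, was 0.52 to 0.65 on the 6 arrays. The 18S ribosomal RNA control signal was 9.61, 7.65 and 9.50 at 24 h and 8.44, 8.51 and 8.58 at 72 h. It was lowest on 24 h replicate 2, the array that was also lowest for the macrophage and endothelial lists, and its part in those results was not tested.

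**Figure D3:**
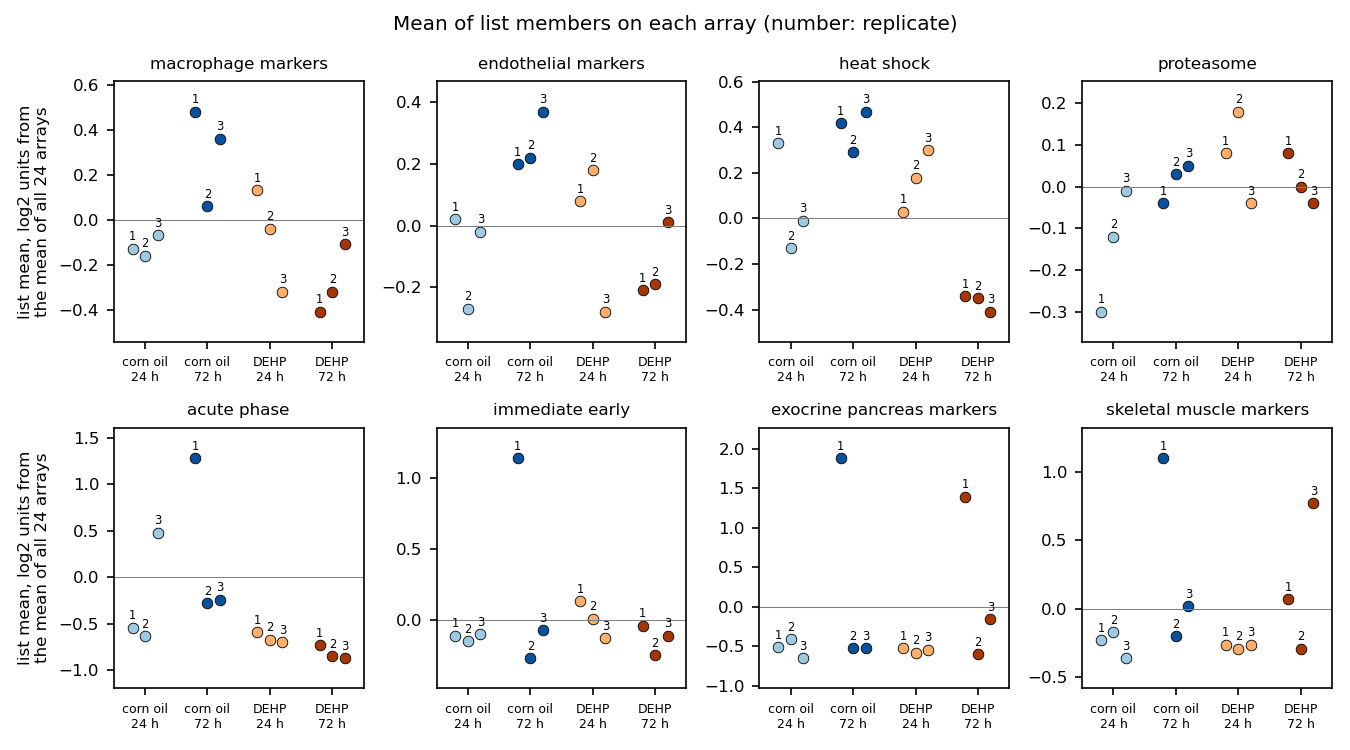
Mean of the members of 8 gene lists on each array (vertical axis, log2 units from the mean of all 24 arrays), by group, with the replicate number at each point. Macrophage and endothelial means at 72 h in corn oil lie above all corn oil arrays at 24 h, whereas acute phase, immediate early, pancreas and muscle means at 72 h are highest on replicate 1 (1.28, 1.14, 1.88 and 1.10).

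The change between 24 and 72 h was then compared with that of DEHP livers, whose 6 arrays are separate from the corn oil ones. The difference between the changes (DEHP minus corn oil) was called by limma for 4 genes, 0.022% of those tested, and was negative for all 4. Sgk1 gave 9.45, 9.43 and 9.27 with DEHP at 24 h and 8.30, 8.52 and 7.96 at 72 h, a change of -1.13 against 0.68 in corn oil. The difference was -1.81 (limma, adjusted p = 0.0017). Bpgm differed between times by -0.09 with DEHP, and the difference from its rise in corn oil was -0.73 (limma, adjusted p = 0.0411). Avpr1a, the vasopressin receptor of hepatocytes, differed between times by -0.74 with DEHP and by 0.28 in corn oil, a difference of -1.02 (limma, adjusted p = 0.0411). Chka, which starts phosphatidylcholine synthesis, gave 9.72, 9.77 and 9.37, then 9.98, 10.04 and 9.78 in corn oil, a change of 0.31 against -1.47 with DEHP. The difference was -1.78 (limma, adjusted p = 0.000577), but the gene's 2 other probe sets gave -0.75 and -0.65 in corn oil, and with all probe sets averaged it was not called (0.309). Averaging also ended the calls of Bpgm (0.336) and Avpr1a (0.0629), as did quantile normalization (0.223 and 0.171). With each of the 12 arrays left out in turn, Bpgm was called in 3 fits and Avpr1a in 2. Avpr1a is also on the circadian outputs list. Its corn oil mean was 8.89 at 2 h, 8.15 at 8 h and 9.01 at 24 h, and that of Chka was 9.44, 7.40 and 9.62. The part of sampling time in these differences was not tested. For Ccn2 the DEHP change was 0.30, and the difference of -1.02 was not called (limma, adjusted p = 0.273).

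In DEHP livers the medians of the same marker lists lay below that of all genes, though the lists themselves were not tested. The median DEHP change was -0.23 for macrophage, -0.10 for endothelial and -0.06 for stellate cell markers, while over all genes it was 0.00. For C1qc the change was -0.26 with DEHP, and the difference from corn oil was -1.01 (limma, adjusted p = 0.467); for Lyve1 it was -0.25, against 0.75 in corn oil (difference not called; 0.512). No member of these lists was called for that difference. Heat shock genes had a median DEHP change of -0.51. Hspa1a differed between times by -0.16 with DEHP (difference -1.78; limma, adjusted p = 0.27), Hspa1b by -1.47 (difference -1.97; 0.273) and Hsph1 by -1.35 (difference -1.44; 0.109). Dbp differed between times by 2.96 with DEHP, at 6.68 and 9.63 on average, against -0.04 in corn oil, but with the wide spread of this gene the difference was not called (limma, adjusted p = 0.278). Within DEHP livers the changes of Dbp and of Arntl (-1.03) were called (limma, adjusted p = 0.0213 for each). The Arntl difference from corn oil, -0.99, was not called (limma, adjusted p = 0.331).

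**Figure D4:**
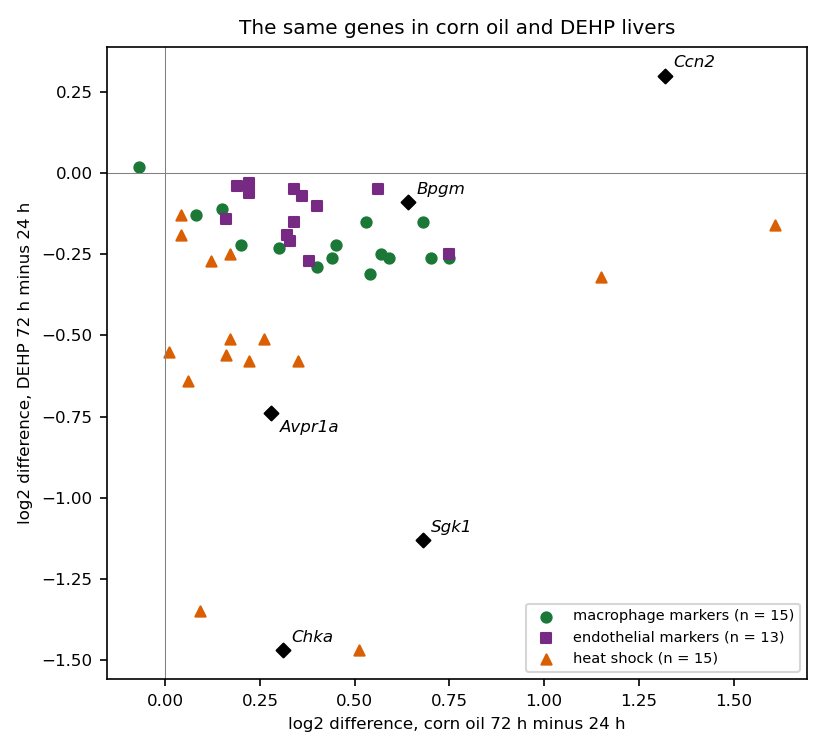
Change from 24 to 72 h in corn oil livers (horizontal axis) against that in DEHP livers (vertical axis), both log2, for macrophage, endothelial and heat shock genes and for 5 named genes. Most list members lie to the right of 0 and below 0, with medians of 0.45 and -0.23 for macrophage and 0.34 and -0.10 for endothelial markers.

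The remaining lists had medians between -0.12 and 0.12. Cell cycle genes had a median of 0.03 over 30 members and Mki67, a marker of dividing cells, gave -0.03. Genes of drug metabolism that CAR and PXR control had -0.02 over 22. Cyp2b10, a target of CAR, gave 6.85, 6.86 and 6.72, then 6.35, 7.62 and 6.92. Complement and coagulation had 0.03 over 24, antioxidant and glutathione genes 0.10 over 25, aryl hydrocarbon receptor genes 0.04 over 9, and amino acid catabolism and urea cycle 0.08 over 27. In the last of these Ass1, a urea cycle enzyme, gave 8.22, 7.87 and 8.63, then 7.85, 7.43 and 7.40, wholly below (-0.68; limma, adjusted p = 0.235). Its single probe set was dim, at a 24 h mean of 8.24. The other urea cycle enzymes Cps1, Otc, Asl and Arg1 had 24 h means of 13.41, 12.73, 11.65 and 13.41. How well that probe set reads the Ass1 transcript was not tested. Genes with a male or female bias or tied to growth hormone had a median of -0.06, and Hsd3b5, a male-specific steroid enzyme, gave -0.21. The p53 and apoptosis list had a median of 0.12 over 17, lymphocyte markers 0.05 over 13, bile duct markers -0.12 over 8 and adipocyte markers 0.01 over 8. Of the adipocyte markers, 2 (25%) lay wholly above: Fabp4, given above, and the fat cell hormone Adipoq, at 4.41, 4.58 and 4.45, then 5.62, 4.92 and 4.87. The adipocyte list means did not overlap, at -0.23, -0.10 and -0.23, then 0.00, -0.05 and 0.00. Nor did those of the lymphocyte list, at -0.11, -0.02 and -0.06, then 0.10, 0.01 and 0.01, although none of its members lay wholly above. Circadian outputs had a median of 0.00 over 14, and Pdk4, which spares glucose in fasting, gave -0.14.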

How the data were processed

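Liver RNA of 24 samples was hybridised to arrays of 45101 probe sets. The authors deposited log2 signals made with RMA (version not given in the sources used here), per the submitters' processing notes. They range from 2.84 to 14.55; arrays have no sequencing depth, so the number of arrays limits precision. Groups came from the sample labels. Probe sets were named through the supplied annotation table: 34958 had 1 symbol, 932 several, and 9211 no row. For each of 18194 genes the probe set brightest on average over the 24 arrays was used. The model (R 4.3.3, limma 3.58.1) held the 8 group means, with 16 residual and 6.21 prior degrees of freedom, no covariate and no block, moderated t statistics, and Benjamini-Hochberg adjustment over all genes. It was also run on simulated data with independent normal noise. Those data held no outlying arrays, so that run cannot show how such arrays affect the calls. No 2 arrays of these groups were copies (smallest SD of a difference 0.202).

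The comparison and the 34 gene lists were chosen with earlier results of these data known; a list of skeletal muscle markers was added later. Lists are described by counts and medians without a test. The naming rule took all called genes, up to 4 called members of each list or else its largest difference, the called differences from DEHP, and 20 fixed genes; other genes were named after their values were seen, among them further list members. Predicted genes were passed over. Some list genes have no probe set here and are not analysed.

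Replicate numbers do not pair the samples: deviations of same-numbered 24 and 72 h arrays correlated at 0.04, 0.05 and 0.00. Alternatives covered the block, the samples fitted, dim genes, averaged probe sets, variance estimation, array weights, normalization, thresholds and each array left out; 3 were added after the data were seen. Sequences are RefSeq's (GRCm38.p6).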

Additional observations from a re-analysis of the deposited data

Results flagged for a closer look

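For 4 genes the change from 24 to 72 h differed between DEHP and corn oil livers in limma's test of the difference itself. Sgk1 differed between times by 0.68 in corn oil and by -1.13 with DEHP, a difference of -1.81 (adjusted p = 0.0017). Chka differed between times by 0.31 and by -1.47, a difference of -1.78 (limma, adjusted p = 0.000577). Avpr1a differed between times by 0.28 and by -0.74, a difference of -1.02 (limma, adjusted p = 0.0411). Bpgm differed between times by 0.64 and by -0.09, a difference of -0.73 (limma, adjusted p = 0.0411). Leaving out any single array of the 4 groups kept the calls of Sgk1 and Chka, at differences of -1.94 to -1.66 and of -1.95 to -1.63, but Avpr1a was called in only 2 and Bpgm in only 3 of these 12 fits. Averaged over its probe sets, Chka differed by -0.81 and was not called. In corn oil livers at 2, 8 and 24 h the mean was 9.44, 7.40 and 9.62 for Chka and 8.89, 8.15 and 9.01 for Avpr1a. The part of sampling time in these calls was not tested.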

How the results depend on the processing

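Both times had 3 arrays, and none was ungavaged. Against 2 genes called between 72 and 24 h in corn oil, there was 1 with the 6 arrays alone and 1 with the 12 corn oil arrays (Dmbt1 in both), 4 with averaged probe sets, 4 with a variance trend, 5 with array weights and 4 with quantile normalization, and 13 without both arrays of high acute phase levels. Leaving out 1 array gave 0 to 11: none without 24 h replicate 1 (limma; 718 at an unadjusted p under 0.05), 11 without 24 h replicate 3, 4 without 72 h replicate 1 and 4 without 72 h replicate 2. Against 4 genes differing between DEHP and corn oil, there were 2 at an adjusted p under 0.01, 1 with averaged probe sets, 140 with array weights, 2 with quantile normalization and 31 without both arrays; leaving out 1 array gave 2 to 18, the 18 without corn oil 72 h replicate 1, and 2 without corn oil 72 h replicate 2 or any single DEHP array. With the replicate number as a block there were 2 (Ccn2 and Bpgm) for corn oil and 2 (Chka and Sgk1) for the difference. The cause of these shifts was not tested.

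Bpgm and Ccn2 kept their direction in every fit. With averaged probe sets Bpgm differed by 0.59 (limma, adjusted p = 0.242). Of 1793 values of named genes under the alternatives, 1704 kept direction and side of the threshold, 35 lost the call, 18 gained it and 36 changed sign, all of the latter for genes not called. With averaged probe sets Chka gave -0.36 and Cpt1a -0.04; with quantile normalization Fasn gave -0.03 and Hsp90aa1 -0.05; without both arrays Arntl gave 0.02, Cxcl10 -0.09, Egr1 -0.09 and Prss2 0.00. Leaving out 1 array gave -0.27 to 0.16 for Arntl, -0.02 to 0.51 for Cxcl10, -0.17 to 0.46 for Cyp2b10, -0.64 to 0.56 for Dbp, -0.18 to 2.84 for Egr1, -0.31 to 0.37 for Fasn, -0.18 to 0.12 for Fkbp5, -0.11 to 0.08 for Mki67, -0.01 to 2.21 for Mt1, -0.33 to 0.04 for Pdk4, -0.08 to 0.10 for Per2, -0.05 to 1.45 for Saa1, -0.02 to 2.52 for Saa2, -0.77 to 2.71 for Orm2, -0.03 to 1.80 for Prss2, -0.16 to 0.34 for Hsph1 and -0.09 to 0.12 for Hsp90aa1. Leaving out 1 array moved the macrophage median between 0.36 and 0.65 and the endothelial between 0.21 and 0.42.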
